A study of Homo sapiens with 36 samples.

Results

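Vehicle-treated MEC1 cells were compared with vehicle-treated JVM2 cells, as the baseline state of a p53-mutated B-cell leukaemia line against a p53 wild-type line. The comparison rests on 6 of the 36 RNA-sequencing libraries of the series, which are the 3 MEC1 and the 3 JVM2 libraries given dimethyl sulfoxide (DMSO), the solvent of the drugs tested. Members were taken by the cell line and treatment in the sample labels, and genes of the X and Y chromosomes were set aside. The study treated MEC1, JVM2 and EHEB, a further p53 wild-type line, with fludarabine, ibrutinib, idelalisib or DMSO, in 3 libraries per group. All RNA was depleted of ribosomal RNA.

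Each side is a single cell line. MEC1 was established from a patient with chronic lymphocytic leukaemia (CLL) in prolymphocytoid transformation, and JVM2 from a patient with B-cell prolymphocytic leukaemia. The methods of the study call these lines B lymphoblastoid. DMSO was on the MEC1 cells for 48 h, on JVM2 for 72 h and on EHEB for 96 h, so that line, p53 status and culture time cannot be told apart here. Nothing in the labels says that the 3 libraries of a group came from separate cultures, and the p values therefore measure the spread between these libraries, which may be technical.

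The transcription factor p53 is activated by DNA damage and other stress and switches on genes that stop the cell cycle, repair DNA or start apoptosis. Its best known targets include the cyclin-dependent kinase inhibitor CDKN1A and its own antagonist MDM2, an E3 ubiquitin ligase. Mature B cells also carry an immunoglobulin of a single light chain type, and their stage can be read in part from transcription factors, surface receptors and chemokine receptors.

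The 6 libraries held 35479702 to 48753246 deposited counts and 19557 to 20836 genes with a count above 0. Levels are given as CPM, a share of the TMM-scaled library total, with libraries in the order of their label numbers (37, 38 and 39 for MEC1, and 85, 86 and 87 for JVM2). The RNAs 7SL, 7SK and RPPH1 took 9.27% to 11.6% of the counts in MEC1 and 12.8% to 13.8% in JVM2. Among 8099 genes with a mean of at least 10 CPM in both lines, 82 ranged more than 4-fold within a line. The B-cell markers summed to 2893 to 3090 CPM in MEC1 and 4096 to 4241 CPM in JVM2. The 8 T-cell markers summed to 34.35 to 39.93 CPM in MEC1 and 55.96 to 59 CPM in JVM2, most of it TRAC (33 to 38.6 CPM and 54.7 to 58.1 CPM), while CD3D and CD3G had no count in any of the 6 libraries. The 8 myeloid markers summed to 0.404 to 0.849 CPM and 8.75 to 10.3 CPM, with LYZ, MPO and ELANE at no count in all 6.

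Of 15563 genes tested and kept, 5113 were higher in MEC1 and 5255 were lower (edgeR quasi-likelihood F-test, adjusted p under 0.05), or 32.9% and 33.8% of the genes tested. Since a difference of any size was called for 66.6% of genes, a stricter call was used for the text: an edgeR test against a 2-fold difference (glmTreat). By that test 1754 genes were more than 2-fold higher in MEC1 (11.3%) and 2262 were more than 2-fold lower (14.5%). These 2 percentages are the background for the counts of more than 2-fold in the vehicle libraries below. For counts by the test of any difference, the background is 32.9% higher and 33.8% lower. The median log2 fold change of MEC1 over JVM2 across all genes tested was 0.0041. Scaling by library size alone moved this median to 0.14. Adjusted p values below come from the edgeR test against a 2-fold difference, unless the test of any difference is named.

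The p53 target genes were lower in MEC1 as a group. Of 32 listed genes, 31 were tested, and TNFRSF10C was left out for low counts. More than 2-fold lower were 17 of them (54.8%, against 14.5% of all genes), and none was more than 2-fold higher, or 1 with library size scaling. By the test of any difference, 27 were lower and 2 were higher. The median log2 fold change of the list was −1.39, beside 0.0041 over all genes.

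The widest gaps were in genes that were nearly silent in MEC1. PHLDA3, a repressor of Akt signalling, had 0.491, 0.222 and 0.206 CPM in MEC1 against 53.2, 46.8 and 67.1 CPM in JVM2 (log2 fold change −7.49 ± 0.31, where ± gives the standard error here and below, adjusted p = 4.02e-06). GDF15, a secreted stress cytokine, had 0.246, 0.424 and 0.155 CPM against 35.2, 45.3 and 40.3 CPM (−7.14 ± 0.28, adjusted p = 3.14e-06). SPATA18, which acts in mitochondrial quality control, had no count in MEC1 and 4.83, 4.74 and 5.33 CPM in JVM2, at least 82.9-fold higher in JVM2 against a floor of 3 reads over the MEC1 libraries. PLK2, a polo-like kinase, had 0, 0.182 and 0.155 CPM in MEC1 and 9.19, 10.9 and 9.05 CPM in JVM2 (−6.40 ± 0.55, adjusted p = 0.000157), a fitted value that moved between −5.81 and −7.00 when MEC1 library 37 or 38 was left out.

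ZMAT3, an RNA-binding protein, had 118, 129 and 113 CPM in MEC1 and 1886, 1849 and 1827 CPM in JVM2 (−3.95 ± 0.06, adjusted p = 2.12e-07). CDKN1A, which encodes the cell cycle inhibitor p21, had 104, 103 and 105 CPM against 483, 494 and 492 CPM (−2.24 ± 0.04, adjusted p = 5.59e-07). MDM2 had 252, 246 and 228 CPM against 621, 614 and 534 CPM (−1.28 ± 0.08, adjusted p = 0.00396), and this call was lost when libraries were scaled by size alone (adjusted p = 0.0658). In each of these genes all MEC1 libraries lay below all JVM2 libraries.

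SESN1, a regulator of mTOR signalling under stress, had 1.21, 1.15 and 1.21 CPM in MEC1 and 26.2, 28.1 and 29.9 CPM in JVM2, and GADD45A, a stress sensor that binds PCNA, was lower by 3.49 on the log2 scale. XPC, which recognises DNA lesions, fell by 1.55. FDXR, a mitochondrial reductase, fell by 1.39, and RRM2B, a ribonucleotide reductase subunit, fell by 1.74. Among the genes of apoptosis, BBC3 (PUMA) fell by 1.63 and AEN, an apoptosis-enhancing nuclease, by 1.73. FAS, a death receptor, had 34.2, 37.4 and 33.3 CPM in MEC1 and 78.1, 158 and 165 CPM in JVM2, a difference of −1.93 whose call was lost with limma-voom (adjusted p = 0.0627).

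Some members did not follow. APAF1, the apoptosome scaffold, was higher in MEC1 with 70.9, 70.0 and 62.7 CPM against 33.3, 32.2 and 34.1 CPM (log2 fold change 1.03, adjusted p = 1.77e-05 for any difference and 0.424 for more than 2-fold). CYFIP2, a regulator of actin, had a log2 fold change of 0.49 (adjusted p = 0.00019 for any difference). PMAIP1 (NOXA) had 206, 212 and 216 CPM in MEC1 and 178, 291 and 284 CPM in JVM2, and was not called. TNFRSF10B, a TRAIL receptor, had a log2 fold change of 0.13 and was not called, except as higher with library size scaling (0.27). BAX, the pore-forming effector, was called lower at −0.97 but not as more than 2-fold (adjusted p = 0.918). Without JVM2 library 85, PMAIP1 was called lower (log2 fold change −0.46, adjusted p = 0.000661 for any difference).

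**Figure D1:**
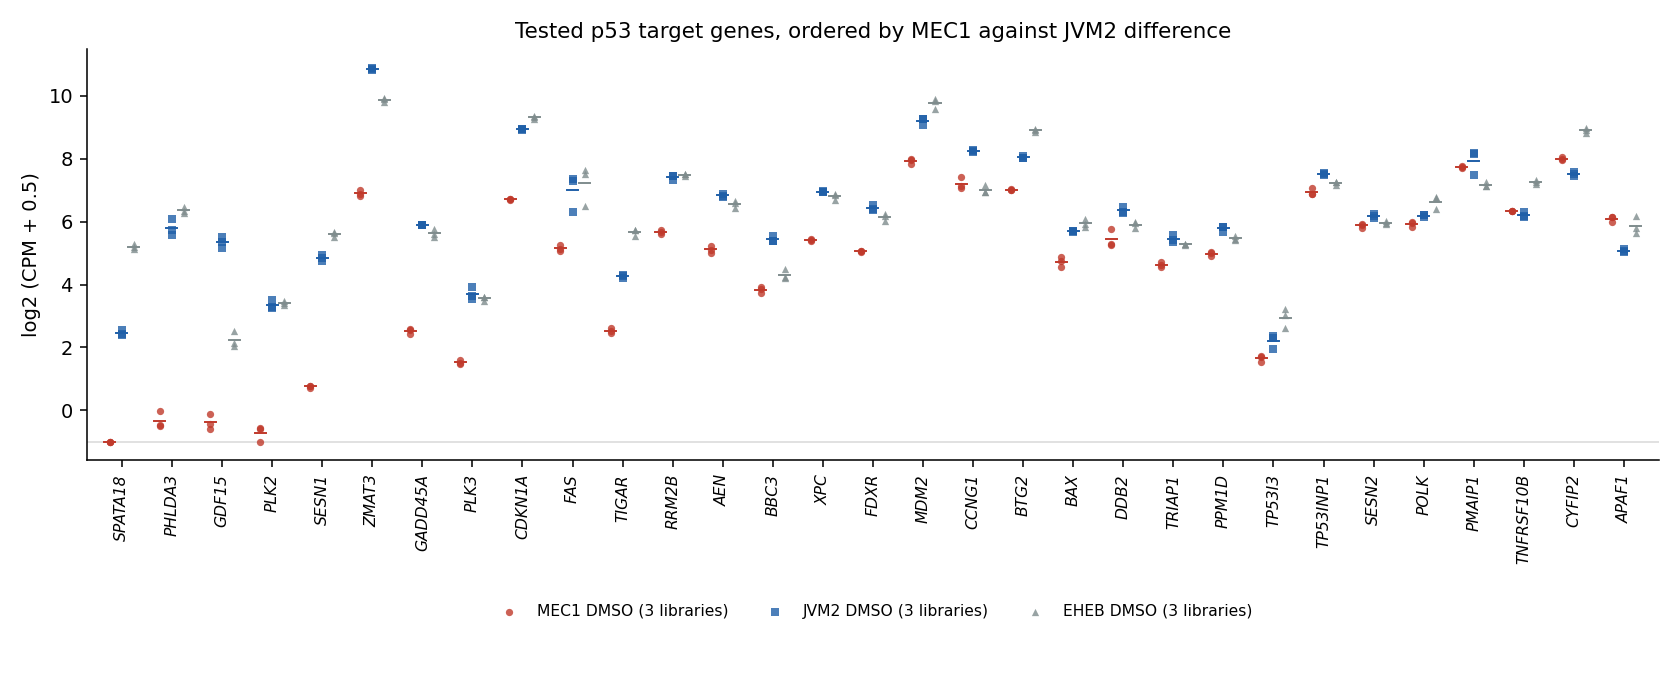
The 31 tested p53 target genes, as log2 of CPM plus 0.5 in each of the 3 MEC1, 3 JVM2 and 3 EHEB DMSO libraries (points) with the group mean (bar). MEC1 and JVM2 were scaled over their 6 libraries and EHEB over the 9 DMSO libraries, a scale that is 1.19% lower. Targets run from the lowest to the highest MEC1 over JVM2 fold change. The MEC1 points lie below the JVM2 points for most genes, those of SPATA18, PHLDA3, GDF15 and PLK2 lie at or near the grey line of no count, and TNFRSF10B, CYFIP2 and APAF1 at the right lie higher in MEC1.

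The letters of the p53 decamer motif (3 purines, C, 2 bases that are A or T, G, 3 pyrimidines, a pattern that reads the same on both strands) were searched in the RefSeq promoters of GRCh38, which run from 250 bases before to 50 after a gene's start. Promoters were given for 26 of the 32 target genes. Those without one include TNFRSF10B, TNFRSF10C, RRM2B, GADD45A and PHLDA3. A match lay in 6 of the 26 (23.1%), beside 8.06% of 27305 genes with a promoter. Shown are the 30 bases around each match, written 5′ to 3′ on the gene's strand with the motif in capitals.
FAS: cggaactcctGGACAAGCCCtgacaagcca
SESN1: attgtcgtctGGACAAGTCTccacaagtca
DDB2: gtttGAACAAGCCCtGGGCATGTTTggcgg
FDXR: gggcaggagcGGGCTTGCCCtgcggagcag
AEN: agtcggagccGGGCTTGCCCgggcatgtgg
PLK2: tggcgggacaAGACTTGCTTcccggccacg

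These windows lie at chr10:88991299-88991328 (FAS, plus strand), chr6:109009018-109009047 (SESN1, minus), chr11:47214975-47215004 (DDB2, plus), chr17:74872986-74873015 (FDXR, minus), chr15:88621296-88621325 (AEN, plus) and chr5:58460199-58460228 (PLK2, minus). DDB2, a DNA damage recognition factor, holds a pair of decamers 1 base apart, starting at base 6 after its start site, and the other matches lie 11 to 132 bases before the start. Of the 17 targets that were more than 2-fold lower in MEC1, 14 had a promoter and 5 of these held a match. DDB2 itself was lower by 0.91 on the log2 scale (adjusted p = 0.00172 for any difference), with 37.7, 38.2 and 54.5 CPM against 88.3, 79.2 and 77.5 CPM. A match of letters is not evidence of binding, and windows without one were not searched further.

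The line difference of these genes was also read in drug-treated libraries, which share no library with the vehicle comparison. The drug was given at 50 µM (fludarabine), 5 µM (ibrutinib) or 10 µM (idelalisib) for 48 h in MEC1 and 72 h in JVM2. More than 2-fold lower in MEC1 were 24 of 32 tested targets with fludarabine (14.3% of all genes), 16 of 31 with ibrutinib (15.2%) and 14 of 31 with idelalisib (17.3%). The medians of the list were −2.44, −1.54 and −0.82. CDKN1A was lower by 2.44, 3.13 and 3.13 in the same order. MDM2 differed by −3.0 with fludarabine, −0.86 with ibrutinib and −0.57 with idelalisib.

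Of 10 tested genes in the list of p53, its regulators and relatives, 1 was more than 2-fold higher in MEC1 (10%, against 11.3% of all genes). More than 2-fold lower were 2 (20%, against 14.5%). By the test of any difference, 4 were higher and 4 lower, and the median log2 fold change was −0.16. CHEK1 was the gene more than 2-fold higher, and TP63 was among those more than 2-fold lower. CHEK1, the checkpoint kinase downstream of ATR, had 96.3, 107 and 103 CPM in MEC1 and 24.4, 17.8 and 19.3 CPM in JVM2 (log2 fold change 2.32 ± 0.13, adjusted p = 5.27e-05). TP63, a relative of p53, had 81, 44.4 and 36.1 CPM against 262, 255 and 258 CPM (−2.26 ± 0.29, adjusted p = 0.00385). ATM, the kinase that signals double-strand breaks, was 1.27-fold higher in MEC1 (log2 fold change 0.35, adjusted p = 0.00688 for any difference). MDM4, an inhibitor of p53, was not called, except as lower when MEC1 library 38 was left out (adjusted p = 0.00919 for any difference).

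Genes of the short arm of chromosome 17 were lower in MEC1 as a body. On 17p, 284 genes were tested and 83.5% of them had a negative log2 fold change, with a median of −0.97. More than 2-fold lower were 93 of them (32.7%) and more than 2-fold higher were 7. On 17q, the long arm of the same chromosome, 694 genes had a median of −0.02 and 90 were more than 2-fold lower (13%). Each MEC1 library set against the JVM2 mean gave a 17p median of −0.80, −0.82 or −0.87 on the log2 (CPM + 0.5) scale.

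Other arms stood away from the median of all genes by less. Genes of 6q had a median of −0.64 (328 genes, 70.1% negative), those of 3q −0.42 (502 genes, 64.9% negative) and those of 9p −0.39 (177 genes). In the other direction, 9q had a median of 0.67 (468 genes, 25.6% negative) and 7p of 0.57 (248 genes, 28.2% negative), followed by 18p with 0.49 (63 genes, 33.3% negative) and 8p with 0.48 (171 genes, 34.5% negative). On 9q, 106 genes were more than 2-fold higher in MEC1 and 35 were more than 2-fold lower.

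Both lines were also set against EHEB, the third vehicle-treated line, in values that share the MEC1 and JVM2 libraries with the comparison above. On the log2 (CPM + 0.5) scale, the 17p median was −0.69 in MEC1 against EHEB and 0.16 in JVM2 against EHEB. For 9q these values were 0.61 and 0.05, for 7p 0.42 and −0.04, and for 6q −0.57 and −0.14. For 3q, MEC1 differed from EHEB by a median of 0.0075 and JVM2 by 0.35. The values of MEC1 and JVM2 against EHEB were −0.21 and 0.04 for 9p, 0.10 and −0.19 for 8p, and 0.18 and −0.15 for 18p. In the drug-treated pairs of MEC1 and JVM2, which share no library with the vehicle pair, the 17p median was −0.87 with fludarabine, −0.95 with ibrutinib and −0.93 with idelalisib, and the 9q median was 0.62, 0.59 and 0.58. Other arms moved more between the pairs. The 6q median, −0.64 with vehicle, was −0.66 with fludarabine, −0.30 with ibrutinib and −0.31 with idelalisib, and that of 3q, −0.42 with vehicle, was −0.41, −0.22 and −0.20. DNA was not analysed here, and a number of copies cannot be read from these values.

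**Figure D2:**
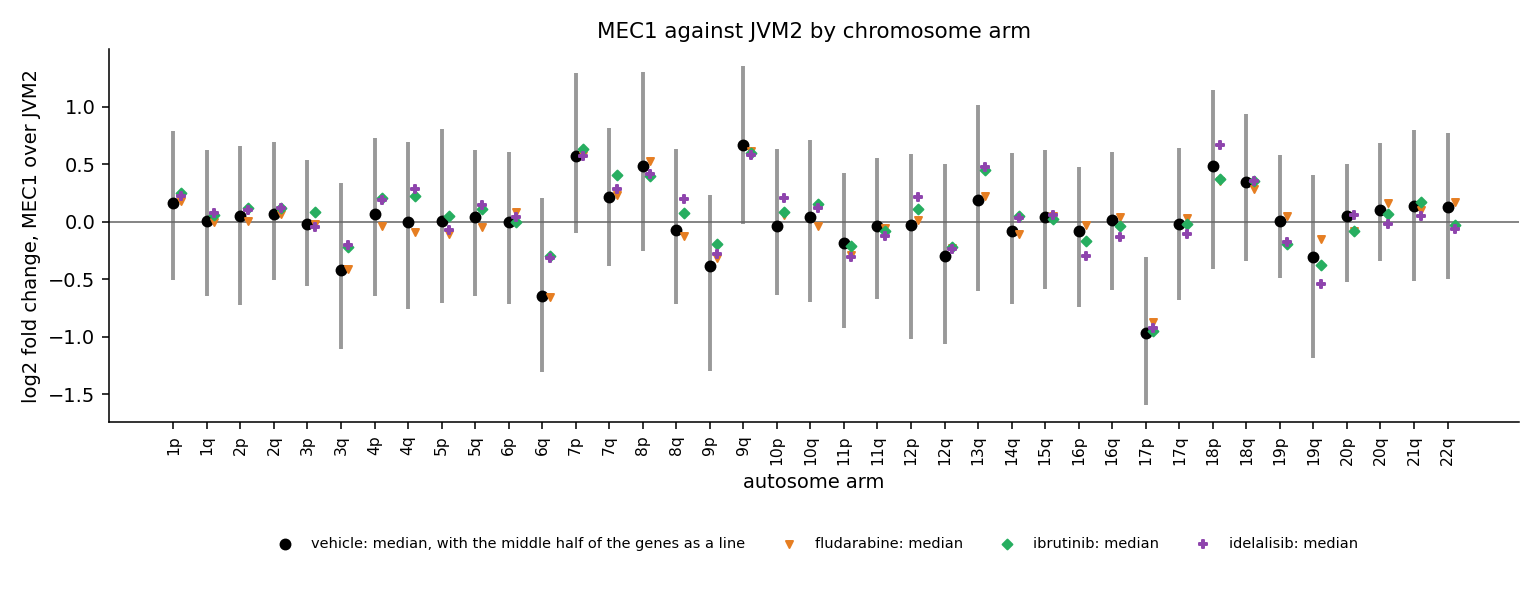
Median log2 fold change of MEC1 over JVM2 for the genes tested on each autosome arm, in the vehicle libraries (black, with a grey line over the middle 50% of the genes of the arm) and in the libraries with fludarabine, ibrutinib or idelalisib (coloured). The 17p medians lie near −0.9 in all 4 pairs, and those of 9q and 7p lie above 0.5.

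Genes of DNA replication and mitosis were higher in MEC1. All 22 listed genes had a positive log2 fold change, 21 were called by the test of any difference, and 12 (54.5%, against 11.3% of all genes) were more than 2-fold higher. The median was 1.38. The minichromosome maintenance genes, whose products form the replicative helicase, led the list. MCM4 had 413, 420.1 and 406 CPM in MEC1 and 41.3, 39.4 and 40.4 CPM in JVM2 (log2 fold change 3.35 ± 0.05, adjusted p = 1.79e-07), and MCM3 had 403, 399 and 376 CPM against 47.6, 33.1 and 44.3 CPM (3.24 ± 0.14).

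Other members of the list ranged from a large difference to none called. MKI67, the proliferation marker, had 771, 841 and 723 CPM in MEC1 and 237, 245 and 253 CPM in JVM2 (1.67 ± 0.07, adjusted p = 4.33e-05). PCNA, the sliding clamp, had a log2 fold change of 2.09. TOP2A, which untangles DNA, was higher by 0.67 and was not called as more than 2-fold, and BIRC5 (survivin) had 29.6, 24.5 and 27.1 CPM against 24.6, 25.9 and 24.8 CPM and was not called, except with library size scaling (0.25). The time in culture differed between the lines, and its part in these differences was not tested.

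Cyclins and their regulators went both ways, with 6 of 17 genes more than 2-fold higher (35.3%, against 11.3% of all genes). More than 2-fold lower were 5 (29.4%, against 14.5%), or 3 with limma-voom or with library size scaling. Of the D-type cyclins, which drive entry into the cycle, CCND1 and CCND2 were far lower in MEC1. CCND1 (chromosome 11, 69641156 to 69654474) had 27.2, 26.4 and 31.3 CPM in MEC1 and 975, 914 and 931 CPM in JVM2 (−5.05 ± 0.09, adjusted p = 2.12e-07). CCND2 had 16.3, 17.7 and 15.4 CPM against 868, 826 and 784 CPM (−5.65 ± 0.08, adjusted p = 1.69e-07). Per kilobase of exon, JVM2 held 197.4 CPM of CCND1 and 103.4 CPM of CCND2. CCND3 did not pass the test of any difference.

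CCNE2, E2F1 and CDK6 were higher in MEC1. CCNE2, a partner of CDK2 at the start of S phase, had 50.6, 53.2 and 53.3 CPM in MEC1 and 1.74, 2.58 and 1.73 CPM in JVM2 (4.69 ± 0.17, adjusted p = 2.55e-06). E2F1, which switches on replication genes, was higher by 3.19, and CDK6, the partner of D-type cyclins, by 1.36. The inhibitor CDKN2C (p18) was also higher in MEC1, with 122, 116 and 121 CPM against 7.01, 5.99 and 5.9 CPM (4.25 ± 0.09, adjusted p = 4.12e-07). RB1, the brake on E2F factors, was lower in MEC1 (log2 fold change −1.30), a call lost with limma-voom (adjusted p = 0.0639) and with library size scaling (adjusted p = 0.103).

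The immunoglobulin genes separated the lines by light chain and by heavy chain class. Polymorphic and near-identical segments share reads, and their counts are therefore uncertain. JVM2 held the lambda constant genes IGLC2, at 486, 448 and 472 CPM, and IGLC3, at 108, 105 and 110.5 CPM. MEC1 had no count of IGLC3, which was at least 1798-fold higher in JVM2, and 0.067, 0 and 0.0258 CPM of IGLC2, a ratio of 15555 (95% counting interval 3229 to 96340). The kappa constant gene IGKC was at 349, 318 and 328 CPM in MEC1 and 278, 304 and 329 CPM in JVM2 and was not called, except as higher in MEC1 with library size scaling (0.27).

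Variable genes were read in the same way. IGKV4-1 held 99.9% of the 31032 counts of kappa variable genes in MEC1 and stood at 246, 223 and 229.8 CPM, while JVM2 had 161 counts over all kappa variable genes. IGLV2-14 held 97.0% of the 84458 counts of lambda variable genes in JVM2, at 659.8, 659 and 683 CPM, and had no count in MEC1, at least 11114-fold higher in JVM2. The IGKC reads of JVM2 thus came with very few reads of a kappa variable gene. Among heavy chain variable genes, IGHV4-59 had the most counts in MEC1 (32.7% of 19459) and IGHV3-20 in JVM2 (54.5% of 12369), the latter with 0, 73.6 and 79 CPM in the 3 libraries.

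Of the heavy chain constant genes, IGHM was higher in JVM2, with 5704, 5798 and 5991 CPM against 971, 908 and 918 CPM in MEC1 (−2.64 ± 0.05, adjusted p = 4.6e-07). IGHD, the partner of IGHM in naive B cells, was lower in MEC1 by 5.35. The switched classes went the other way. IGHG1 had 336, 323 and 311 CPM in MEC1 and 0.174, 0.728 and 0.877 CPM in JVM2 (9.02 ± 0.37, adjusted p = 3.8e-06), and IGHA1 had 54.9, 52.6 and 55.5 CPM against 0.174, 0 and 0.0877 CPM. Per kilobase of exon, MEC1 held 498.3 CPM of IGHM and 117.0 CPM of IGHG1.

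**Figure D3:**
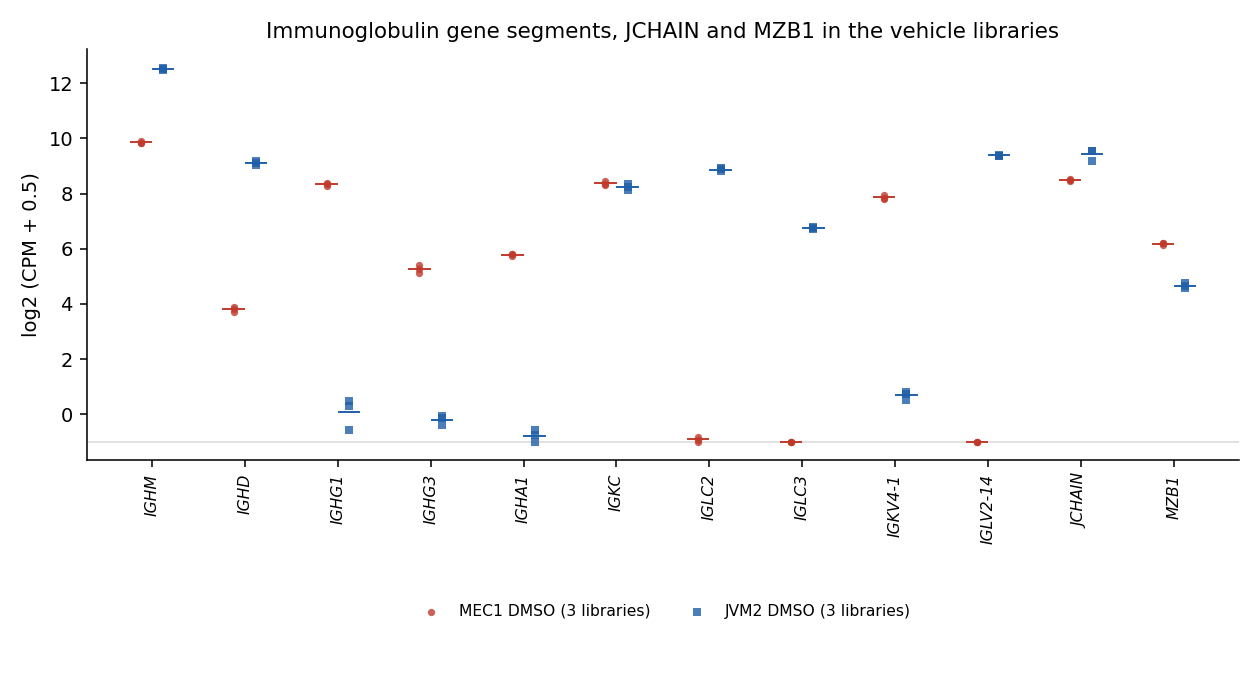
Immunoglobulin constant and variable genes, JCHAIN and MZB1 as log2 of CPM plus 0.5 in the 3 MEC1 and 3 JVM2 DMSO libraries (points) with the group mean (bar). IGLC2, IGLC3 and IGLV2-14 lie at or near the floor of the axis in MEC1, IGHG1, IGHG3 and IGHA1 do so in JVM2, and the IGKC points of the lines overlap.

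The B-lineage genes PAX5 and MS4A1 were present in both lines. Calls of more than 2-fold among the B-cell markers were near the shares of all genes. Of 14 markers, 4 were higher and 7 lower in MEC1 by the test of any difference, and 3 were not called. More than 2-fold higher were 2 (14.3%, against 11.3% of all genes). This count was 1 with DESeq2, limma-voom, no filter on low counts or a mean of at least 1 CPM. It was also 1 without MEC1 library 38 or 39 or JVM2 library 86 or 87. More than 2-fold lower were 2 (14.3%, against 14.5%). PAX5, the B-lineage factor, had 342, 337 and 304 CPM in MEC1 and 516, 512 and 515 CPM in JVM2, lower by the test of any difference only (log2 fold change −0.65). MS4A1, which encodes CD20, had 111, 100.4 and 109.9 CPM against 111, 95.4 and 94.1 CPM and was not called.

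Among 30 tested B-cell transcription factors, 9 were more than 2-fold higher in MEC1 (30%, against 11.3% of all genes). More than 2-fold lower were 5 (16.7%, against 14.5%), and the median log2 fold change was 0.03. IKZF1 (Ikaros), a factor of lymphoid development, had 207, 206 and 228 CPM in MEC1 and 8.69, 4.37 and 7.58 CPM in JVM2 (4.96 ± 0.26, adjusted p = 1.39e-05). LEF1, the Wnt pathway factor that marks CLL, had 19, 26.9 and 18.9 CPM against 0.262, 0.352 and 0.132 CPM (6.44 ± 0.32, adjusted p = 1.02e-05). AFF3, a nuclear factor of lymphoid cells, had no count in JVM2 and was at least 317-fold higher in MEC1. TOX, known mainly from T-cell development, was higher by a ratio of 894 (95% counting interval 180 to 39772).

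Germinal-centre genes, which mark B cells that mature in lymph node follicles, leaned towards MEC1 by count but not by summed level. Of 13 tested, 5 were more than 2-fold higher (38.5%, against 11.3% of all genes) and 1 lower (7.69%, against 14.5%). The median was 1.84. Summed over the list, their level was 847.4 to 886.6 CPM in MEC1 and 1392 to 1506 CPM in JVM2. Among genes with a mean of at least 1 CPM, 3 were more than 2-fold higher, and the lower call was lost in 4 of the 11 alternatives. BCL6, the master repressor of the germinal centre, had 10.7, 11.8 and 11.2 CPM in MEC1 and 0.0872, 0.775 and 0.438 CPM in JVM2 (4.64 ± 0.50, adjusted p = 0.000572). BCL7A, a chromatin remodelling subunit, was higher by 6.16 and MYBL1, a Myb family factor, by 3.17. Without JVM2 library 86 the BCL6 and BCL7A values were 5.31 and 7.09. PRDM1 (Blimp-1), which opposes BCL6 and drives plasma cell fate, had 13.1, 12.8 and 9.91 CPM in MEC1 against 51.9, 57.4 and 50.2 CPM in JVM2 (−2.16 ± 0.12, adjusted p = 8.25e-05).

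Of the remaining factors, ZEB2, a repressor, had 1.79, 2.44 and 1.42 CPM in MEC1 and 31.3, 34.4 and 31.6 CPM in JVM2 (−4.10 ± 0.20, adjusted p = 1.05e-05). TCF3 (E2A) was higher in MEC1 by 1.53, and its inhibitor ID3 by 2.37. IRF4, a factor of activated B cells and plasma cells, was lower by 1.01, which was not called as more than 2-fold (adjusted p = 0.499), and IRF8 was higher by 1.87. MYC had 194, 10.2 and 155 CPM in MEC1 and 85.1, 104 and 9.47 CPM in JVM2, so that a single library of each line stood far below the other two, the lines overlapped and no difference was called.

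The B-cell receptor signals through kinases and adaptors that ibrutinib and idelalisib act upon. Of 31 tested genes, 6 were more than 2-fold higher in MEC1 (19.4%, against 11.3% of all genes) and 4 lower (12.9%, against 14.5%). CR2 (CD21), the complement receptor that lowers the threshold of the B-cell receptor, had 280.5, 298 and 279 CPM in MEC1 and 1.54, 2.09 and 2.06 CPM in JVM2 (7.22 ± 0.13, adjusted p = 2.21e-07). BANK1, a B-cell scaffold, had 60.6, 66.7 and 62.5 CPM against 0.698, 0.564 and 0.679 CPM (6.61 ± 0.11). LCK, a Src kinase best known from T cells, was higher in MEC1 by 5.01.

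The kinases LYN and PRKCB went the other way. LYN, the main Src kinase of B cells, had 202, 209 and 191.8 CPM in MEC1 and 594, 603 and 593 CPM in JVM2 (−1.57 ± 0.05, adjusted p = 1.59e-05). PRKCB, the kinase that links the receptor to NF-kB, was lower by 2.0, and MALT1, the protease of the same route, was higher by 1.66. CD79A, a signalling chain of the receptor, was lower by 1.33, while its partner CD79B had 64.7, 66.8 and 63.2 CPM against 56.7, 57.3 and 62.4 CPM and was not called, except with library size scaling (0.28) or without JVM2 library 87 (0.18). SYK was lower by 0.66, called by the test of any difference only.

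**Figure D4:**
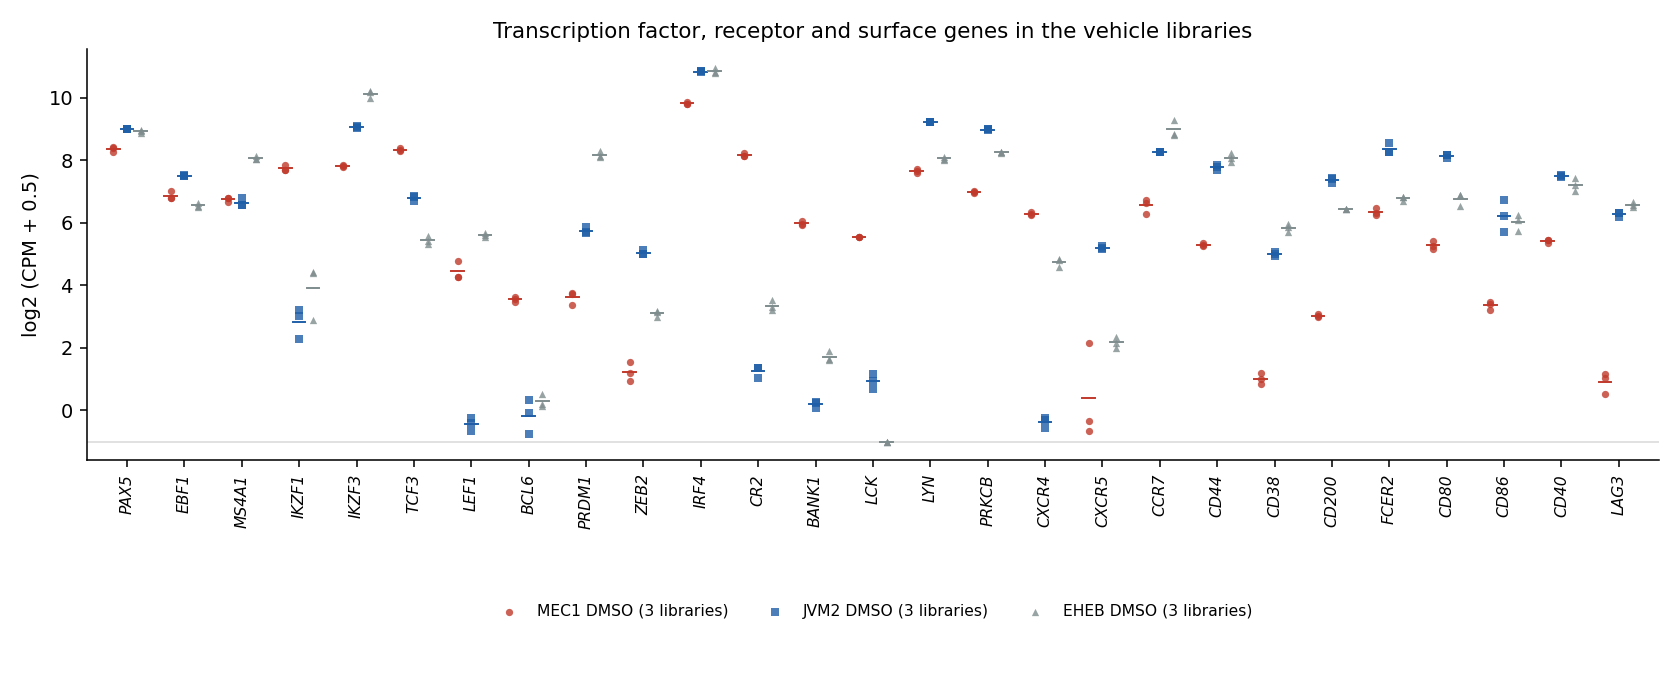
Genes of B-cell factors, receptors and surface proteins as log2 of CPM plus 0.5 in each of the 3 MEC1, 3 JVM2 and 3 EHEB DMSO libraries (points) with the group mean (bar). PAX5, EBF1 and MS4A1 lie near one another in MEC1 and JVM2, CR2, BANK1 and CXCR4 lie far higher in MEC1 than in JVM2, and CD38, CD200 and LAG3 lie far lower.

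Among surface genes used in the diagnosis of CLL, 4 of 21 were more than 2-fold higher in MEC1 (19%, against 11.3% of all genes). More than 2-fold lower were 7 (33.3%, against 14.5%). CD5, the defining T-cell antigen of CLL, stayed at or below 0.423 CPM in all 6 libraries and was not called. CD200, an inhibitory ligand, had 7.48, 7.55 and 8.08 CPM in MEC1 and 155, 171 and 167 CPM in JVM2 (−4.42 ± 0.07, adjusted p = 2.12e-07). CD38, an ectoenzyme of poor prognosis in CLL, had 1.29, 1.51 and 1.78 CPM against 31.9, 33.4 and 29.9 CPM (−4.38 ± 0.14, adjusted p = 1.51e-06). FCER2 (CD23) was lower in MEC1 (log2 fold change −2.03), as were SDC1 (CD138), a plasma cell antigen (−2.25), and IL2RA (CD25), an interleukin-2 receptor chain (−6.54). LPL had no count in MEC1 and was at least 177-fold higher in JVM2.

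Receptors for entry into lymphoid tissue differed in both directions. CXCR4, which holds cells in bone marrow and stroma, had 74.9, 81.6 and 76.7 CPM in MEC1 and 0.174, 0.305 and 0.351 CPM in JVM2 (8.08 ± 0.17, adjusted p = 3.41e-07). CCR6, a chemokine receptor of mucosal homing, had no count in JVM2 and was at least 158-fold higher in MEC1.

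CXCR5, the receptor that leads B cells into follicles, was on the other side, with 35.8, 37.7 and 35.1 CPM in JVM2. In MEC1 it had 0.29, 0.141 and 3.95 CPM, so that library 39 stood far above the other two (log2 fold change −4.69 ± 0.99, adjusted p = 0.0141, and −7.39 without library 39). CCR7, which guides cells into the T-cell zone, was lower in MEC1 by 1.70, CD44, the hyaluronan receptor, by 2.49 and ITGB1 by 1.85. ITGA4 (CD49d), its partner integrin chain, was higher by 1.20. Over the 22 tested homing and adhesion genes, 4 were more than 2-fold higher (18.2%, against 11.3% of all genes). More than 2-fold lower were 5 (22.7%, against 14.5%).

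Genes of NF-kB, the pathway downstream of CD40 and the B-cell receptor, were lower in MEC1 in 22 of 28 cases by the test of any difference, with 4 higher. More than 2-fold lower were 11 (39.3%, against 14.5% of all genes) and 1 was higher, and the median was −0.84. Of the subunits, NFKB1 was lower by 0.56 and RELA was not called (75.3, 84.7 and 73.5 CPM in MEC1 and 98.4, 63.3 and 72.8 CPM in JVM2). Target genes differed more. TNFAIP2 had 2.66, 3.63 and 3.28 CPM in MEC1 and 122, 104 and 110.0 CPM in JVM2 (−5.13 ± 0.14, adjusted p = 8.92e-07). TNFAIP3 (A20), the feedback inhibitor of the pathway, was lower by 1.78, NFKBIA by 1.62 and TRAF1 by 1.96.

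CD40, the receptor for T-cell help, had 43.7, 43.6 and 40.4 CPM in MEC1 and 175, 180.3 and 183.7 CPM in JVM2 (−2.08 ± 0.06, adjusted p = 2.83e-06). CD83, a marker of activated antigen-presenting cells, was the gene of this list that was more than 2-fold higher in MEC1 (1.35 ± 0.07, adjusted p = 0.00111). Among 20 tested chemokines and cytokines, 6 were more than 2-fold higher (30%, against 11.3% of all genes) and 4 lower (20%, against 14.5%). CCL3 had 47.9, 40.2 and 45.6 CPM in MEC1 and 352, 352 and 349 CPM in JVM2, and IL10 had 12.3, 12.5 and 11.4 CPM against 0.872, 0.564 and 0.899 CPM. CCL3 shares sequence with close copies, and its count is uncertain for that reason.

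Costimulatory and checkpoint genes were mostly lower in MEC1, with 13 of 25 tested genes more than 2-fold lower (52%, against 14.5% of all genes). More than 2-fold higher were 3 (12%, against 11.3%), and the median was −1.10. CD80, a ligand of CD28 and CTLA4, had 35.6, 42 and 38.1 CPM in MEC1 and 271, 289 and 286.4 CPM in JVM2 (−2.87 ± 0.08, adjusted p = 1.28e-06), and CD86 had 10.1, 8.76 and 10.6 CPM against 105, 74 and 52.1 CPM. LAG3, an inhibitory receptor, was lower by 5.74 and CD276 by 5.57. CD274 (PD-L1) had 16, 18.9 and 3.9 CPM in MEC1 against 58.2, 62.4 and 58.5 CPM in JVM2, a call of more than 2-fold at adjusted p = 0.0468 that was lost in 6 of the 11 alternatives and without MEC1 library 37 or any of the JVM2 libraries. Higher in MEC1 were TNFRSF9 (4-1BB) by 2.94, HAVCR2 (TIM-3) by 2.76 and SLAMF6 by 1.28.

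Genes of antigen presentation by MHC class II are highly polymorphic. With vehicle, 8 of 18 were more than 2-fold lower in MEC1 (44.4%, against 14.5% of all genes) and 3 higher (16.7%, against 11.3%). Their median was −0.99. This lean was weaker in the drug-treated pairs. There, 4 were more than 2-fold lower with fludarabine, 3 with ibrutinib and 0 with idelalisib, while 3, 3 and 5 were higher. The medians were −0.37, −0.53 and −0.0064 in the same order. HLA-DRA had 1246, 1164 and 1149 CPM in MEC1 and 2600, 2774 and 2928 CPM in JVM2 (−1.22 ± 0.06, adjusted p = 0.00483), a call lost with library size scaling (adjusted p = 0.0845). HLA-DQB1 was higher in MEC1 by 1.83. The master regulator CIITA was not called, with 71.2, 78.8 and 75.8 CPM against 84.4, 81.9 and 74.6 CPM. Of 14 MHC class I and peptide loading genes, 2 were more than 2-fold lower (14.3%, against 14.5% of all genes). None was more than 2-fold higher, or 1 with library size scaling or without MEC1 library 39. By the test of any difference, 9 were lower and 1 higher, and the median was −0.59. HLA-E was lower by 1.45, while B2M, the common light chain, had 387 CPM in JVM2 library 85 and 5818 and 5811 CPM in the others. B2M was called lower only without that library (log2 fold change −1.11, adjusted p = 3.17e-05 for any difference).

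The BCL2 family holds genes that protect from apoptosis and genes that promote it. Of 14 tested, 5 were more than 2-fold lower in MEC1 (35.7%, against 14.5% of all genes) and 1 higher (7.14%, against 11.3%). BCL2, the target of venetoclax, had 447, 472 and 454 CPM in MEC1 and 774, 750.3 and 727 CPM in JVM2, lower by 0.71 and not called as more than 2-fold. BCL2L1 (BCL-XL) was lower by 2.01, BCL2A1 by 1.61, and the BH3-only gene BMF by 1.94. MCL1 was lower by 1.15, a call lost in 4 of the 11 alternatives.

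Genes that carry or activate fludarabine were mixed. Of 16 tested, 6 were more than 2-fold higher in MEC1 (37.5%, against 11.3% of all genes) and 3 lower (18.8%, against 14.5%). DCK, the kinase that activates the drug, had 132, 143.8 and 132 CPM in MEC1 and 40.7, 40.9 and 37.7 CPM in JVM2 (1.78 ± 0.06, adjusted p = 2.02e-05). ABCB1, the efflux pump P-glycoprotein, had 7.57, 7 and 7.41 CPM in MEC1 and no count in JVM2 (at least 112-fold higher in MEC1). UGT2B17, the glucuronidating enzyme of the study, had 15.7, 15.2 and 16 CPM against 13.2, 14.6 and 12.8 CPM and was not called, although 3 of the 11 alternatives called it higher in MEC1 by 0.20 to 0.35, as did the fit without JVM2 library 86. Its close paralogue UGT2B15 could share reads with it, and both counts are therefore uncertain.

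Some genes of other cell types were far higher in MEC1 than in JVM2, or the reverse. PRF1 (perforin) and GNLY (granulysin), proteins of cytotoxic granules, had 244, 239.7 and 236 CPM and 46.3, 40.5 and 51 CPM in MEC1, against 1.02, 0.845 and 1.25 CPM and none in JVM2. The NK-cell marker NCAM1 was at or below 0.141 CPM in every library, KLRD1 was not called, and NKG7 was higher by 0.94 by the test of any difference only. Summed over their 5 genes, NK-cell markers stood at 292.4 to 302.1 CPM in MEC1 and 9.415 to 11.75 CPM in JVM2. The keratin KRT8 had 18.1, 15.8 and 17.5 CPM in JVM2 and none in MEC1, at least 284-fold higher in JVM2, and its partner KRT18 had 18.7, 19.7 and 24.3 CPM against 0.156, 0.746 and 0.310 CPM in MEC1. The 7 stromal and epithelial markers summed to 46.3 to 51.66 CPM in JVM2 and 4.055 to 5.784 CPM in MEC1. Of the 5 tested, 3 were more than 2-fold lower in MEC1 (the keratins and PECAM1, an endothelial adhesion gene, by 2.08) and 1 was more than 2-fold higher (the epithelial antigen EPCAM, at or below 1.01 CPM in all 6 libraries, a call lost without MEC1 library 38 or 39 or JVM2 library 85), while the collagen gene COL1A2 had no count in any. The myeloid surface gene CD33 had 8.34, 8.45 and 7.43 CPM in JVM2 and none in MEC1. In EHEB, myeloid markers summed to 7.438 to 8.856 CPM, near the 8.746 to 10.32 CPM of JVM2. NK-cell markers summed to 25.84 to 29.26 CPM in EHEB, and stromal and epithelial markers to 6.855 to 8.13 CPM. The part of other cells in these values was not tested. In bulk RNA, a few cells with much of an RNA and many cells with little of it cannot be told apart.

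Immunoglobulin gene segments aside, the genes with the largest fitted difference in each direction, among those of at least 10 CPM in the higher line, had no count in the lower line, PRRX1 excepted. Higher in MEC1 were DSG2, a desmosomal cadherin, with a mean of 180.0 CPM (at least 2772-fold), PSAT1, an enzyme of serine synthesis, with 99.2 CPM (at least 1525-fold), and TBXT (brachyury), a mesodermal factor, with 85 CPM (at least 1294-fold). Lower in MEC1 were EDIL3, an extracellular matrix protein, with a mean of 624.7 CPM in JVM2 (at least 10426-fold), LAMP3, a lysosomal protein of mature dendritic cells, with 224.2 CPM (at least 3749-fold), and AKR1C1, an aldo-keto reductase, with 146.8 CPM (at least 2447-fold). PRRX1, a mesenchymal homeobox factor, had 629.5 CPM in JVM2 and 3 deposited counts in MEC1, a ratio of 27912 (95% counting interval 5635 to 1240327). In EHEB, DSG2 averaged 349.0 CPM and LAMP3 237.7 CPM, while TBXT had no count and EDIL3 averaged 3.77 CPM. The other genes named by this rule, which leaves out immunoglobulin and T-cell receptor gene segments, are RUBCNL, CDH17, RFLNB, PDE3B, GNLY, IGF2BP2, LRP12, SH3RF3 and SERPINB6 above, and AOC1, PLOD2, TMEM176A, CNN3, ALDH1L1, AMOTL1, TMEM176B and SLITRK5 below.

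Of 30 interferon-stimulated genes, 4 were more than 2-fold higher in MEC1 (13.3%, against 11.3% of all genes) and 2 lower (6.67%, against 14.5%). The median was −0.03. With DESeq2, with limma-voom and without MEC1 library 37 these counts were 2 and 1, and without MEC1 library 38 or JVM2 library 87 only 2 were higher. Glycolysis genes had 2 of 20 more than 2-fold higher (10%, against 11.3% of all genes) and none lower, with a median of 0.49. The count of those more than 2-fold higher was 1 in 6 of the 11 alternatives and without MEC1 library 37 or any of the JVM2 libraries. By the test of any difference, 14 of the 20 were higher (against 32.9% of all genes) and 2 lower (against 33.8%). Their summed level was 18548 to 19818 CPM in MEC1 and 12779 to 13841 CPM in JVM2. Among noncoding RNA genes of B-cell leukaemia, 4 of 12 were more than 2-fold lower (33.3%, against 14.5% of all genes). Of these, MIR155HG, the host transcript of miR-155, had 22.7, 23 and 23 CPM in MEC1 and 95.1, 82.6 and 85 CPM in JVM2 (−1.93 ± 0.07, adjusted p = 1.42e-05). Cytidine deaminases (2 of 9 higher, 1 lower), ABC efflux transporters (2 of 9 higher, 1 lower) and glucuronidation genes (none of 7 higher, 1 lower) gave few calls. Each list of 9 thus had 22.2% higher and 11.1% lower, and the glucuronidation genes had 14.3% lower. Over all genes the shares were 11.3% higher and 14.5% lower. More than 2-fold higher in MEC1 across all genes were 13.6% with fludarabine, 12.2% with ibrutinib and 14.7% with idelalisib, and of the replication and mitosis genes 20, 10 and 19 of 22 were called in that direction.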

How the data were processed

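RNA of 36 libraries was sequenced after ribosomal RNA depletion, and 6 DMSO libraries enter the main comparison. Per the labels and methods, the authors trimmed reads with Trimmomatic, aligned them to GRCh38 with HISAT2 2.1 and estimated gene counts with StringTie 1.3.4. The deposited table holds these estimated counts, whose low values step by 8/3, while no source used here gives the Ensembl release or the strand setting. Without strand, reads of overlapping antisense genes cannot be told apart. The blank entry of the table (0.00384% of counts) was left out.

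The deposited counts, which are whole numbers, were filtered with filterByExpr. It asks for about 10 counts in at least as many libraries as a group holds, and 15 in all. A gene with no count in a whole line can pass it. Counts were then scaled by TMM and tested with edgeR 4.0.16 in R 4.3.3, by the quasi-likelihood F-test and by glmTreat against a log2 fold change of 1. Adjustment (Benjamini-Hochberg) ran over 16254 genes. Then 635 genes of X and Y and 56 without a position in GENCODE 44 were set aside. Chromosome arms were split at approximate centromere positions typed from the GRCh38 cytobands, not read from a file. The tests were also run on simulated counts in which few genes differed, equally in each direction. Most genes differed between the real lines, so that run cannot show how well the scaling held here. Each drug pair was fitted alone on its 6 libraries. No library pair agreed within sampling noise (chi-square per degree of freedom 29.9 to 52.1).

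A gene with no count in a line was given a bound from 3 reads (8 deposited counts) over that line, and one with 1 to 3 reads a 95% counting interval. Both cover counting error only. Named genes were members of the 29 gene lists, the 12 largest differences in each direction with at least 10 CPM (immunoglobulin and T-cell receptor segments left out), and the leading immunoglobulin variable genes. Members and lists were chosen with earlier results of these data known. Alternatives were DESeq2 1.42.0, limma-voom (limma 3.58.1), other scalings, filters and library sets, and leaving out each library. Dividing the counts by 8/3 was added after seeing the data. Results of some genes are not reported here.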

Additional observations from a re-analysis of the deposited data

Results flagged for a closer look

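Some genes differed between MEC1 and JVM2 in opposite directions with vehicle and with a drug. All these differences are log2 fold changes of MEC1 over JVM2 called by edgeR on their own 6 libraries, and the difference between vehicle and drug was not tested. CYFIP2, an actin regulator and p53 target, was at 0.49 with vehicle and at −1.04 with fludarabine, −0.31 with ibrutinib and −0.33 with idelalisib. JCHAIN, which joins immunoglobulin polymers, was at −0.95 with vehicle and at 0.39, 0.24 and 0.70 with the same drugs. CD79A was at −1.33 with vehicle and at 0.54 with fludarabine. HLA-DRA was at −1.22 with vehicle and at 0.21 with idelalisib. Groups of 3 libraries are too small for a test of single outlying libraries.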

How the results depend on the processing

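The counts of all genes called stayed within 1.5 times their value in every alternative run, whereas 74 of the 986 counts made for single gene lists did not, most of them counts of 2 or fewer. With library size scaling, 2 NF-kB genes were more than 2-fold higher in place of 1. The lone BCL2 family gene called higher and the lone glucuronidation gene called lower were lost with a mean of at least 1 CPM and with counts divided by 8/3. Over the alternatives, 1424 to 2031 genes were more than 2-fold higher and 1753 to 2606 lower, and with a library left out 1636 to 1707 and 2187 to 2317. With library size scaling, 49.6% of the calls over 2-fold were higher in MEC1, against 43.7% with TMM. Among 165 genes tested, no direction reversed, 13 genes changed a call in an alternative and 8 did so with a library left out. No paired analysis was possible because the groups share no replicate numbers.

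The arm medians moved by more than the spread between libraries in some alternatives. With library size scaling they were −0.83 for 17p, −0.51 for 6q, −0.28 for 3q, 0.80 for 9q and 0.71 for 7p. The median over all genes also rose with that scaling, to 0.14 from 0.0041 with TMM. With a mean of at least 1 CPM, 3q was −0.45 and 9q was 0.56. With counts divided by 8/3, chosen after seeing the data, 6q was −0.67, 9q was 0.63 and 7p was 0.61. For 9q, DESeq2 and its size factors gave 0.65. With a library left out, medians ran from −0.96 to −0.91 for 17p, −0.67 to −0.63 for 6q, −0.44 to −0.39 for 3q, 0.63 to 0.66 for 9q and 0.55 to 0.63 for 7p. The cause was not tested. Depth limits the ratios of genes with few or no counts in a line.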
